A study of Saccharomyces cerevisiae with 12 samples.

Results

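Gene expression on day 6 was compared with day 2 in the laboratory yeast strain CENPK 113-7D, which had been grown in batch culture in synthetic SD medium with 2% glucose. The comparison used 6 of the 12 Affymetrix arrays of the series, 3 labelled as stationary phase for 6 days and 3 labelled as stationary phase for 2 days, and it covered all 5449 S. cerevisiae genes for which a probe set has 1 annotated gene. These arrays and genes were taken from the labels and the annotation, not from the measured values. The gene lists and the rule for naming genes were chosen with earlier results of these data known. The other arrays, 3 from log phase and 3 from day 10, entered the fit as further groups of the same strain and medium, and their levels are given where they help to place a gene. The sample labels count the days in stationary phase, whereas the series description counts them in culture, and the sources used here do not settle which holds. Nor is it stated that the 3 arrays of a day were hybridised with RNA of separate cultures, and the p-values therefore rest on a spread between samples that may be technical.

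When yeast uses up its glucose it leaves fermentation, respires the ethanol and organic acids it had released, and then slowly enters quiescence, a non-dividing state. Cells in this state repress most genes of growth, store trehalose and glycogen and make heat shock proteins, and their survival over time is studied as chronological ageing. The question of this comparison is what still changes in the transcriptome once growth has slowed, between an early and a later stationary day.

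Values are the authors' deposited log2 probe set summaries, and a level is such a value on 1 array. A difference is the mean of the 3 day 6 arrays minus the mean of the 3 day 2 arrays, so that 1 unit is a 2-fold change and a negative value means lower on day 6. It is given with the standard error of a limma fit over all 12 arrays (the value after ±) and n = 3 arrays per day. A gene was called, and is said below to have risen or fallen, at an adjusted p under 0.05 after Benjamini-Hochberg adjustment over all 5449 genes. A list is described by how many of its measured members were called and by the median of their differences, and a list with shares close to the 35.2% and 31.9% of all genes, given next, is no result about the list. Since the lists were written with earlier results of these data known, their counts and medians are a description and not a test, also where the shares differ. Levels sit on a floor near 5.11, so the differences of dim genes are understated.

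In total 3659 genes (67.1%) were called, 1920 of them higher on day 6 (35.2%) and 1739 lower (31.9%). Most shifts were small: the median size among called genes was 0.42, and 349 genes (6.4%) moved by at least 2-fold, 136 up (2.5%) and 213 down (3.91%). The arrays of the 2 days did not overlap for 68.5% of genes. A change of 4-fold or more was seen in 14 genes that rose and in 37 that fell. The largest fall was -4.56 and the largest rise 2.96. The median difference of all genes was 0.02, and 167 genes lay below the background of both days, set by the probe sets of another yeast species on the same arrays. Of those 1746 probe sets, 20 were called when tested by themselves, none by 2-fold or more and none by more than 0.14.

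**Figure D1:**
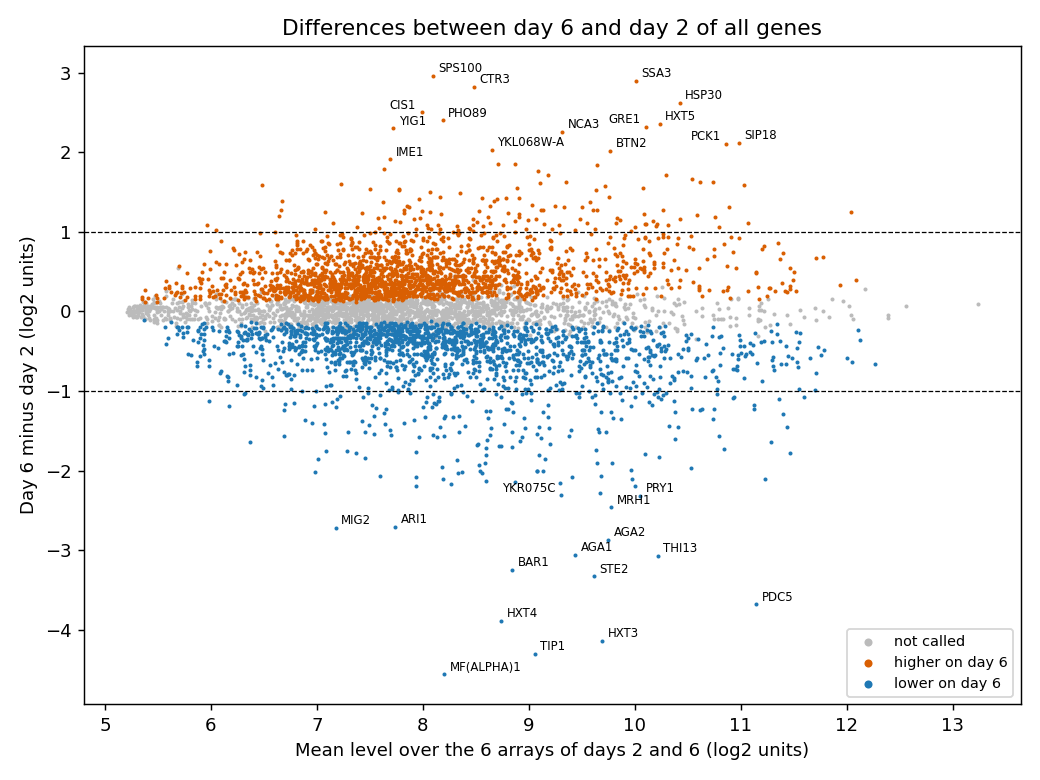
Difference between day 6 and day 2 (vertical axis, log2 units) against the mean level over the 6 arrays of these days (horizontal axis, log2 units) for 5449 genes. Grey points were not called, orange points were higher and blue points lower on day 6 at an adjusted p under 0.05, the dashed lines mark a 2-fold change, and the 30 named genes are the 15 largest called rises and 15 largest called falls without overlap between the days. The fall reaches -4.56 and the rise 2.96.

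Both the scaling and the RNA integrity of the arrays touch every comparison below. All differences are relative to the rest of the array, because how the authors normalized one array against another is not given. When the arrays were instead centred on 27 bacterial and phage hybridisation controls, called the control scale below, every difference moved by -0.77, and by -0.81 without the control bioB. On the control scale 102 genes rose and 4571 fell. The mean signal of those controls was 8.97 ± 0.28 on day 2 and 9.74 ± 0.12 on day 6 (SD, n = 3), and they do not measure the RNA per cell. In bulk cultures fewer living cells and less RNA per cell cannot be told apart. What moved the signal of the controls between the days was not tested. RNA integrity was read from 8 control genes as the signal at their 3' end minus that at their 5' end, which was 1.13, 0.75 and 0.69 on the 3 day 2 arrays and 1.69, 1.59 and 1.67 on the day 6 arrays. All 3 day 6 arrays were thus above all 3 day 2 arrays, and day 2 replicate 1 stood above the other two. With this 3' minus 5' signal as a covariate 1636 genes were called, 844 higher and 792 lower. Its part in the differences cannot be told apart from that of the day, and a value given as "with the covariate" is from that fit. Of the 3659 called genes 1841 kept call and direction on the control scale and 1382 with the covariate. List counts given below without a value for the covariate are from the fit without it. The 15 largest called rises and 15 largest called falls without overlap were called in the same direction under both of these fits and under the 17 other alternatives. They were picked for large differences and for arrays without overlap, so neither this nor their lack of overlap is further support.

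Genes of glucose uptake and glucose signalling gave some of the largest falls. Yeast takes up hexoses through the HXT carriers, of which HXT1, HXT3 and HXT4 serve cells on ample or moderate glucose and HXT2 and HXT7 serve cells on little, and membrane glucose sensors set which carriers are made. HXT3, a low-affinity carrier, had levels of 11.84, 11.68 and 11.78 on day 2 and 7.64, 7.58 and 7.64 on day 6. The 2 days did not overlap, which was a condition of being picked, and differed by -4.14 ± 0.09, a 17.7-fold fall (adjusted p = 7.2e-12). HXT4 had levels of 10.88, 10.59 and 10.58 on day 2 and 6.83, 6.78 and 6.77 on day 6 and differed by -3.89 ± 0.19. Its level of 8.09 ± 0.53 on day 10 (SD, n = 3) lay between those of day 2 and day 6. HXT1 fell by 2.02 ± 0.10 to 5.97 on day 6, close to the background of 5.79, HXT2 changed by -1.34 ± 0.20 and HXT7 by -0.66 ± 0.14. The HXT7 probe set is shared with near-identical sequence, so its close relative HXT6 cannot be told apart from it. HXT5, a carrier of slowly growing and starved cells, went the other way and had levels of 8.94, 8.84 and 9.38 on day 2 and 11.37, 11.43 and 11.46 on day 6. All 3 day 6 arrays exceeded all 3 day 2 arrays, by 2.36 ± 0.15 on average. Of 17 measured carriers and sensors 3 rose and 5 fell, and 5 lay below background on both days. Without day 6 replicate 3, 5 of them rose. HXT2 and HXT7 were not called with the covariate.

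Among 17 regulators of glucose repression 10 fell and 3 rose (median -0.36). MIG2, a repressor that glucose induces, had levels of 8.57, 8.58 and 8.45 on day 2 and 5.84, 5.89 and 5.73 on day 6. It stood near background on all 3 day 6 arrays and fell by 2.72 ± 0.12. The paralogous co-regulators of the Rgt1 repressor, MTH1 and STD1, changed by -1.86 ± 0.12 and -1.78 ± 0.05, the repressor gene NRG2 by -1.33 ± 0.12 and MIG1 by -0.65 ± 0.08. REG2, a subunit of the phosphatase that acts on the Snf1 kinase, rose by 1.55 ± 0.09. Of 16 genes of the Snf1 kinase and its activators 4 rose and 5 fell. The kinase genes SNF1 and SNF4 changed by -0.61 ± 0.09 and -0.83 ± 0.11, while SIP4, a gluconeogenic activator, rose by 1.85 ± 0.10. CAT8, ADR1 and HAP4, other activators of growth without glucose, had differences of 0.16, 0.01 and 0.04 and were not called. On the control scale they stood at -0.61, -0.75 and -0.73, and with the covariate HAP4 was called as lower, at -0.82. NRG2, SNF1 and SNF4 were not called with the covariate.

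Sugar phosphorylation genes were mostly lower on day 6, and fermentation genes went both ways. Of 20 glycolytic genes 12 fell and 1 rose (median -0.51), against 5 and 4 with the covariate (median -0.13). The falls were largest at the first step, where HXK1 changed by -1.97 ± 0.19, EMI2 by -1.31 ± 0.08, HXK2 by -1.26 ± 0.11 and GLK1 by -1.13 ± 0.14. HXK1 had levels of 11.52, 11.43 and 11.61 on day 2 and 9.59, 9.76 and 9.28 on day 6, without overlap. At later steps the aldolase gene FBA1, TDH3 and PGK1 had differences of -0.05, -0.05 and 0.01, and none of them was called. PFK26, which makes the activator fructose 2,6-bisphosphate, rose by 0.85 ± 0.05, and PFK27, its isoenzyme, changed by -1.0 ± 0.09. Of 12 pyruvate decarboxylase and alcohol dehydrogenase genes 6 fell and 4 rose (median -0.22), against 2 and 2 with the covariate (median 0.20). The minor decarboxylase PDC5 had levels of 12.94, 12.99 and 13.03 on day 2 and 9.26, 9.34 and 9.32 on day 6. It differed by -3.68 ± 0.14, a 12.8-fold fall, while the major isoenzyme PDC1 changed by -0.36 ± 0.06. ADH2, which oxidises ethanol, rose by 1.41 ± 0.15 and the zinc-regulated ADH4 changed by -1.48 ± 0.34. Of 14 pentose phosphate genes 7 fell and 2 rose, or 0 without day 6 replicate 1 (median -0.30). GND1 and SOL3, of its oxidative branch, changed by -1.16 ± 0.06 and -1.15 ± 0.07. GLK1 and PDC1 were not called with the covariate. With the covariate the difference of ADH4 turned to 0.88 and was not called. PFK26 was not called on the control scale.

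Of the storage carbohydrates, trehalose has 7 listed genes and glycogen 15. Of 7 trehalose genes the 4 of the synthase complex fell. TPS2 changed by -1.02 ± 0.10, TPS3 by -0.97 ± 0.08, TSL1 by -0.56 ± 0.13 and TPS1 by -0.47 ± 0.12. The 3 trehalases rose on the deposited scale, NTH1 by 0.64, NTH2 by 0.54 and ATH1 by 0.30, and on the control scale they stood at -0.13, -0.23 and -0.47. With the covariate 1 trehalose gene fell and 1 rose, and the list median was -0.03 in place of -0.47. Of the 15 glycogen genes, for synthesis and breakdown, 9 fell and 5 rose (median -0.45), against 3 and 4 with the covariate (median -0.27). UGP1, which makes UDP-glucose, had levels of 10.58, 10.71 and 10.85 on day 2 and 8.70, 8.69 and 8.54 on day 6. The days did not overlap and differed by -2.07 ± 0.10. The glycogen synthase gene GSY1 changed by -1.55 ± 0.10, the phosphorylase gene GPH1 by -1.27 ± 0.27 and phosphoglucomutase PGM2 by -1.08 ± 0.13. GLG2, an initiator of glycogen chains, rose by 1.37 ± 0.07. Of 14 glycerol genes 4 rose and 6 fell, the glycerol importer STL1 rising by 1.79 ± 0.12 and GCY1 falling by 1.27 ± 0.11. TPS2, TSL1, TPS1, NTH1, ATH1, GPH1 and PGM2 were not called with the covariate.

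**Figure D2:**
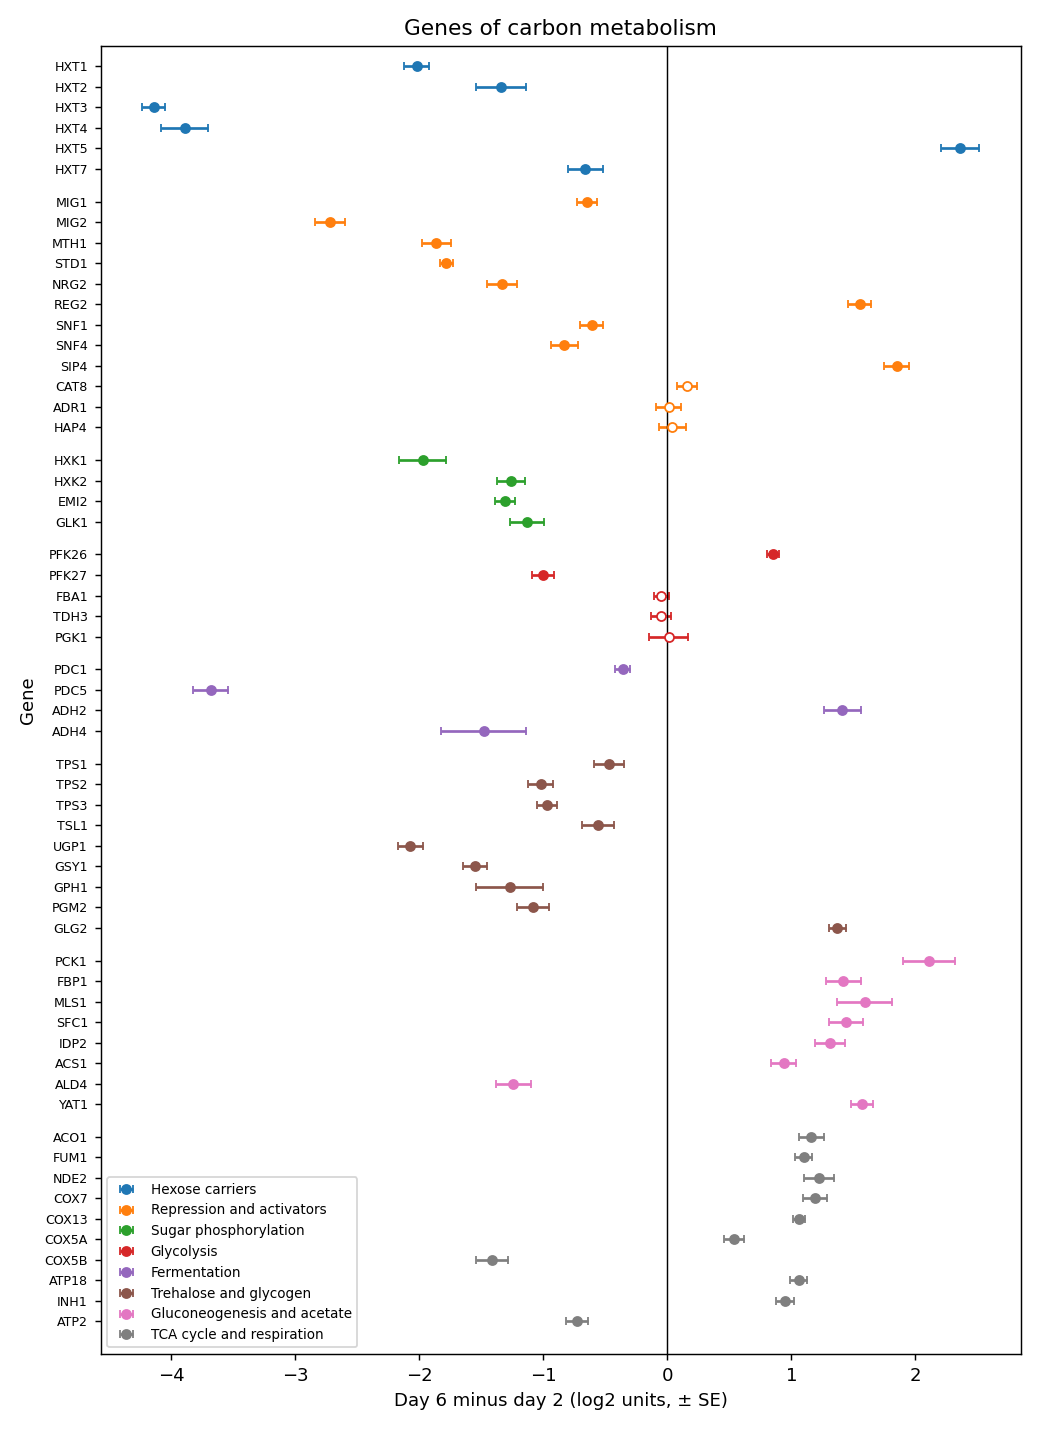
Difference between day 6 and day 2 (horizontal axis, log2 units; bars are the standard error of the limma fit, n = 3 arrays per day) for genes of carbon metabolism, grouped by role. Filled points were called at an adjusted p under 0.05. Hexose carriers HXT1 to HXT4 and hexose-phosphorylating enzymes lie left of 0, and HXT5, SIP4, PCK1 and MLS1 lie right of it.

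Genes of growth on ethanol and acetate mostly rose relative to the array. Gluconeogenesis and the glyoxylate cycle turn two-carbon compounds back into sugar. Of 25 genes of these pathways 15 rose and 3 fell (median 0.50), against 8 and 12 on the control scale (median -0.27). With the covariate 10 rose and none fell. The key enzyme genes PCK1, MLS1 and FBP1 rose by 2.11 ± 0.21, 1.59 ± 0.22 and 1.42 ± 0.14. The mitochondrial succinate-fumarate carrier SFC1 rose by 1.44 ± 0.14 and the NADP-linked isocitrate dehydrogenase IDP2 by 1.31 ± 0.12. PCK1 had levels of 9.57, 9.70 and 10.16 on day 2 and 12.11, 11.91 and 11.74 on day 6. The day 2 arrays spread more widely than the day 6 arrays, which lay above all of them. Of 11 aldehyde dehydrogenase and acetate genes 6 rose and 2 fell (median 0.27), against 0 and 7 on the control scale (median -0.50). With the covariate 2 rose and 1 fell. Acetyl-CoA synthetase ACS1 changed by 0.94 ± 0.10 and the mitochondrial ALD4 by -1.24 ± 0.14. Of 6 carnitine shuttle genes 4 rose and 2 fell (median 0.53), against 1 and 2 on the control scale (median -0.24). YAT1, an acetyltransferase of the outer mitochondrial membrane, changed by 1.57 ± 0.09, and the carrier of choline and carnitine, HNM1, by -1.22 ± 0.07. MLS1 and ALD4 were not called with the covariate. ACS1 was not called on the control scale.

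Most respiratory genes rose relative to the array, though fewer of them were called with the covariate. Of 20 TCA cycle genes 13 rose and 3 fell (median 0.41, -0.36 on the control scale), and the largest rises were those of aconitase ACO1, 1.16 ± 0.10, and fumarase FUM1, 1.10 ± 0.07. Of 27 respiratory chain genes 21 rose and 4 fell (median 0.50, -0.26 on the control scale). NDE2, an external NADH dehydrogenase, changed by 1.22 ± 0.12, and the cytochrome oxidase subunits COX7 and COX13 changed by 1.19 ± 0.10 and 1.06 ± 0.05. The isoforms of subunit 5 moved apart: COX5B, the form of low oxygen, fell by 1.41 ± 0.13, and COX5A changed by 0.54 ± 0.08 (-0.22 on the control scale). Of 17 ATP synthase genes 10 rose and 4 fell (median 0.29, -0.47 on the control scale). ATP18 and the inhibitor INH1 changed by 1.06 ± 0.07 and 0.95 ± 0.07, while the catalytic subunit ATP2 changed by -0.73 ± 0.09. Of 33 mitochondrial import genes 16 rose and 8 fell (median 0.16, -0.61 on the control scale). With the covariate 8 TCA cycle genes rose and none fell, and 7 respiratory chain genes rose and 1 fell. In that fit 3 ATP synthase genes rose and 1 fell, and 7 import genes rose and none fell. ACO1, COX7 and ATP2 were not called with the covariate. FUM1, COX13, ATP18 and INH1 were not called on the control scale.

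Genes of lipid synthesis were mostly lower on day 6. Of 34 fatty acid and phospholipid genes 21 fell, 9 of them by at least 2-fold, and 4 rose (median -0.39, and -0.24 with the covariate). The largest falls were in membrane phospholipid synthesis. CHO1, phosphatidylserine synthase, had levels of 10.77, 11.28 and 11.22 on day 2 and 8.83, 8.88 and 9.01 on day 6, PSD1, which decarboxylates its product, of 8.92, 9.28 and 9.54 on day 2 and 7.18, 7.11 and 7.12 on day 6, and PIS1, phosphatidylinositol synthase, of 9.38, 9.57 and 9.53 on day 2 and 7.45, 7.41 and 7.82 on day 6. For each of the 3 genes every day 6 array lay below every day 2 array, and the differences were -2.19 ± 0.11, -2.11 ± 0.11 and -1.93 ± 0.10. The inositol transporter ITR1 changed by -1.56 ± 0.10, inositol phosphate synthase INO1 by -1.29 ± 0.10 and the methyltransferase OPI3 by -1.17 ± 0.12. The activator genes of this pathway, INO2 and INO4 changed by -0.07, not called, and -0.40 ± 0.07. Of fatty acid synthesis FAS1 changed by -1.22 ± 0.07 and the elongases ELO2 and ELO3 by -1.18 ± 0.09 and -1.33 ± 0.08. OPI3, INO2, INO4, FAS1 and ELO2 were chosen after their values were seen. Of 29 ergosterol genes 17 fell and 5 rose (median -0.29, -0.18 with the covariate), and ERG20 changed by -1.18 ± 0.09 and ERG26 by -1.15 ± 0.07. Genes of fatty acid use went both ways. Of 21 beta-oxidation genes 7 rose and 9 fell. The acyl-CoA synthetase FAA4 changed by -1.52 ± 0.11 and peroxisomal catalase CTA1 by 1.13 ± 0.15. Of 26 peroxisome biogenesis genes 10 rose and 3 fell (median 0.10, -0.67 on the control scale), and PEX21 and PEX19 rose by 1.44 and 1.14. INO4 was not called with the covariate. CTA1 and PEX19 were not called on the control scale without bioB.

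Most Hsp70, Hsp40 and Hsp90 chaperone genes rose relative to the array. SSA3, an Hsp70 gene of stress and post-diauxic growth, had levels of 8.53, 8.37 and 8.79 on day 2 and 11.40, 11.59 and 11.40 on day 6. Without overlap it differed by 2.90 ± 0.12, a 7.47-fold rise (adjusted p = 8.54e-10). Of 25 Hsp70 and Hsp40 genes 19 rose and 6 fell (median 0.82), against 12 and 5 with the covariate. On the control scale 7 rose and 7 fell (median 0.05). Among those that fell, the ribosome-associated chaperones SSB2 and SSZ1 changed by -1.04 ± 0.07 and -0.72 ± 0.10, and SSB1, whose probe set is shared, by -0.63 ± 0.07. The mitochondrial chaperonin pair HSP60 and HSP10 rose by 1.31 ± 0.06 and 1.63 ± 0.07, and the cytosolic Hsp40 YDJ1 by 1.55 ± 0.08. Of 12 genes of Hsp90 and its co-chaperones 10 rose and 2 fell (median 0.86), against 4 and 3 on the control scale (median 0.09) and 7 and 1 with the covariate. Of these HSP82 changed by 1.63 ± 0.13 and its activator gene HCH1 by 1.38 ± 0.07, and the co-chaperone genes CPR6 and STI1 by 1.84 ± 0.11 and 1.66 ± 0.10. Of 7 small heat shock and related genes 4 rose and 2 fell (median 0.74, -0.03 on the control scale and 0.09 with the covariate). HSP30, of the plasma membrane, had levels of 9.08, 9.0 and 9.27 on day 2 and 11.70, 11.76 and 11.74 on day 6, a difference of 2.62 ± 0.15 without overlap. The small heat shock gene HSP26 rose by 1.25 ± 0.28 and the mitochondrial disaggregase gene HSP78 by 1.27 ± 0.11. In the endoplasmic reticulum the Hsp70 gene KAR2 rose by 1.22 ± 0.07 and the transcription factor gene of the unfolded protein response, HAC1, fell by 1.60 ± 0.11. That list of 17 had 9 higher and 6 lower (median 0.13, -0.64 on the control scale). The 14 genes of the chaperonin CCT and prefoldin had 5 higher and 4 lower, and none of them moved by 2-fold (differences from -0.41 to 0.49). Without day 6 replicate 1, 2 of them were lower. HSP26 was not called with the covariate.

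Genes known from stationary phase went both ways. Of 36 such genes 11 rose from day 2 to day 6 and 18 fell (median -0.24, -0.09 with the covariate). The hydrophilin genes GRE1 and SIP18, induced by desiccation and osmotic stress, rose by 2.32 ± 0.14 and 2.12 ± 0.14. GRE1 had levels of 9.02, 8.56 and 9.24 on day 2 and 11.05, 11.43 and 11.31 on day 6, and the day 2 arrays varied more than the day 6 arrays. In contrast the cell wall gene YGP1 changed by -1.83 ± 0.14, the membrane protein gene FMP45 by -1.57 ± 0.17 and RTC3 by -1.49 ± 0.23. Of 15 genes of eisosomes, furrows of the plasma membrane, 4 rose and 6 fell (median -0.26, 0.11 with the covariate), and SUR7 fell by 1.28 ± 0.11. Of 15 genes of catalases, superoxide dismutases and their regulators 4 rose and 9 fell (median -0.30, -0.09 with the covariate). The mitochondrial SOD2 rose by 0.81 ± 0.09, and the cytosolic SOD1 and catalase CTT1 changed by -0.49 ± 0.07 and -0.75 ± 0.20. Of 29 thiol genes 12 rose and 12 fell, and the peroxiredoxins TSA2 and AHP1 changed by -1.10 ± 0.14 and -1.08 ± 0.11. FMP45, RTC3, SOD2, SOD1 and TSA2 were not called with the covariate. With the covariate the difference of CTT1 turned to 0.35 and was not called. SOD2 was not called on the control scale.

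**Figure D3:**
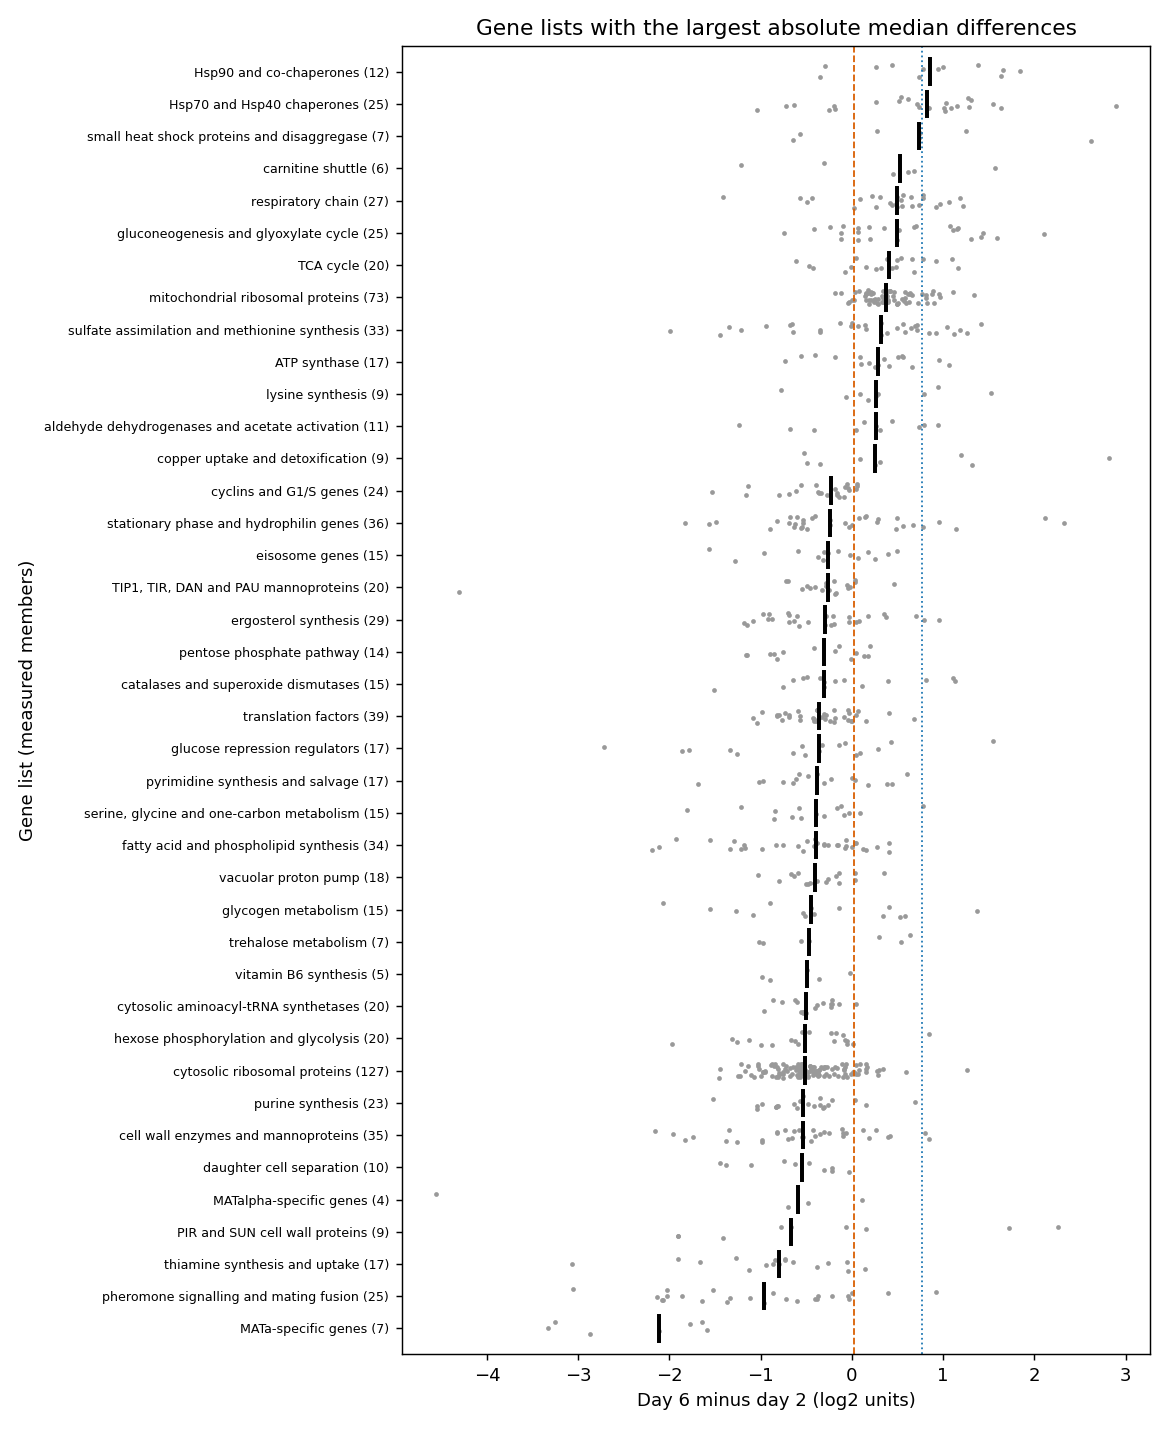
Differences between day 6 and day 2 (horizontal axis, log2 units) of the measured members of the 40 gene lists with the largest absolute medians, 1 row each, with grey points for members and a black bar for the list median. The dashed line marks the median of all 5449 genes at 0.02 and the dotted line the position of 0 on the control scale, so that a list median left of the dotted line lies below 0 on that scale. The MATa-specific list has the lowest median at -2.11 and the Hsp90 list the highest of those shown at 0.86.

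Most mating genes fell, from pheromone to cell fusion. In haploid yeast a pheromone of the opposite mating type binds a receptor, a G protein activates a kinase cascade, and the transcription factor Ste12 induces agglutinins and fusion genes. The 7 MATa-specific genes all fell, with differences from -1.59 ± 0.10 for the a-factor exporter STE6 to -3.33 ± 0.09 for the alpha-factor receptor STE2. STE2 had levels of 11.22, 11.34 and 11.29 on day 2 and 7.91, 7.95 and 7.99 on day 6, without overlap. The pheromone genes MFA1 and MFA2 changed by -1.64 ± 0.16 and -2.11 ± 0.19. Of 25 signalling and fusion genes 20 fell and 2 rose (median -0.96). By step, the G protein subunit genes GPA1 and STE4 changed by -0.96 ± 0.07 and -1.34 ± 0.09, and in the kinase cascade STE11 rose by 0.92 ± 0.06 while FUS3, its last kinase, changed by -2.13 ± 0.06. The feedback regulator SST2 changed by -2.07 ± 0.07, the factor STE12 by -1.12 ± 0.07, and the fusion genes FUS1 and PRM1 and the karyogamy regulator KAR4 by -2.03 ± 0.10, -1.86 ± 0.11 and -2.03 ± 0.10. BAR1, which encodes a protease that degrades alpha-factor, changed by -3.25 ± 0.10, the agglutinin gene AGA2 by -2.87 ± 0.12 and FAR1, needed for cell cycle arrest by pheromone, by -2.08 ± 0.13. The agglutinin anchor AGA1 had levels of 11.22, 10.91 and 10.78 on day 2 and 7.73, 8.0 and 8.0 on day 6, without overlap. The alpha-factor gene MF(ALPHA)1, of the other mating type, had levels of 10.28, 10.65 and 10.51 on day 2 and 5.91, 5.89 and 5.97 on day 6. Its log phase level was 6.01 ± 0.07 and its day 10 level 6.31 ± 0.33 (SD, n = 3), so that the 3 day 2 arrays stood apart from all others. Its mating type has 4 listed genes, of which 3 fell (median -0.59), and the fourth was called, as higher, only without day 6 replicate 3. STE11 was not called on the control scale.

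Cyclin and daughter separation genes fell or were not called, and a regulator and a product of sporulation rose. Of 24 cyclin and G1/S genes 13 fell and none rose (median -0.23), while with the covariate 5 fell (median -0.13). The mitotic cyclin CLB1 changed by -1.53 ± 0.13 and the G1 cyclins CLN1 and CLN2 by -1.16 ± 0.11 and -1.14 ± 0.11. Of 10 genes of daughter cell separation 8 fell and none rose (median -0.55), while with the covariate 2 fell (median -0.55). DSE2 changed by -1.45 ± 0.21 and the chitinase CTS1 by -1.11 ± 0.30. Of 46 DNA replication genes 22 rose and 10 fell (median 0.15, -0.61 on the control scale), and the ribonucleotide reductase gene RNR1 changed by -1.21 ± 0.13. Of 10 histone genes 3 rose and 4 fell, none by 2-fold (median -0.14, 0.02 with the covariate). Of 26 meiosis and sporulation genes 15 rose and 2 fell (median 0.21, -0.56 on the control scale), 2 of them by 2-fold or more. SPS100, a spore wall gene, had levels of 6.59, 6.51 and 6.75 on day 2 and 9.56, 9.63 and 9.53 on day 6. It gave the largest rise of all genes, 2.96 ± 0.16, a 7.77-fold rise, and its log phase level of 5.81 was near the background. IME1, the master inducer of meiosis, had levels of 6.62, 6.66 and 6.94 on day 2 and 8.59, 8.72 and 8.62 on day 6, also without overlap, and differed by 1.91 ± 0.08. Its target gene IME2 changed by 0.96 ± 0.07. CLN1, DSE2, CTS1 and RNR1 were not called with the covariate. IME2 was not called on the control scale.

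**Figure D4:**
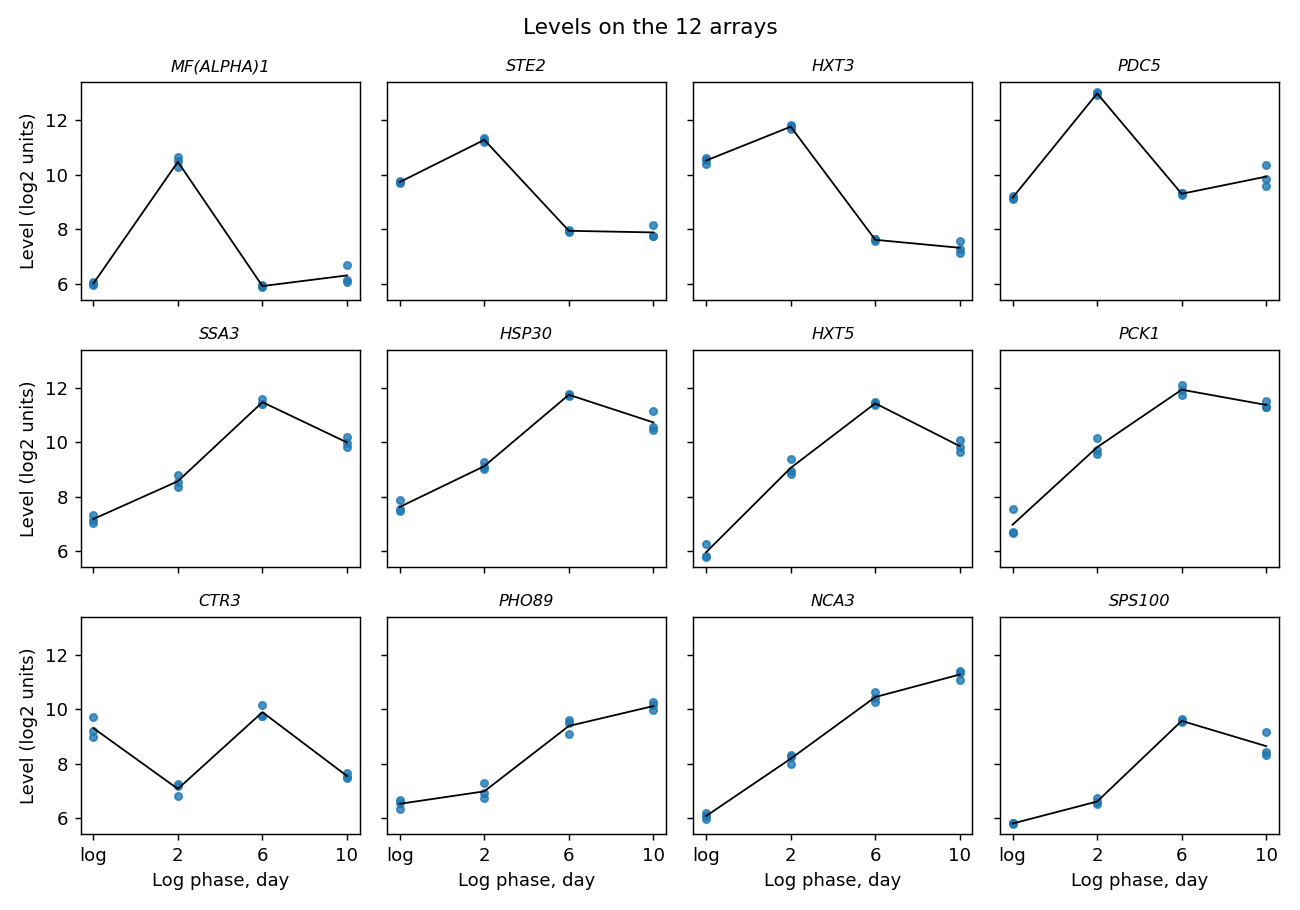
Levels (vertical axis, log2 units) of 12 genes on each of the 12 arrays in log phase and on days 2, 6 and 10, with points for arrays and a line through the 3-array means. Mating and sugar genes in the upper row peak on day 2 or fall after it, from 10.5 to 5.92 for MF(ALPHA)1 between days 2 and 6, and the genes in the lower rows are higher on day 6 than on day 2, such as SSA3 at 11.5 against 8.56.

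Relative to the array, genes of protein synthesis moved in different directions by compartment. Of 127 cytosolic ribosomal protein genes 96 fell and 6 rose (median -0.51, and -0.84 with the covariate). RPL9A and RPS8B had the largest falls, -1.46 ± 0.11 and -1.44 ± 0.11. RPL22B, the minor copy of its pair, rose by 1.26 ± 0.18 and had levels of 8.31, 8.04 and 7.34 on day 2 and 9.09, 9.07 and 9.31 on day 6. Without day 2 replicate 1, 13 of these genes rose and 91 fell. In mitochondria, by contrast, 58 of 73 ribosomal protein genes rose and none fell (median 0.37), although 2 fell without day 2 replicate 1. On the control scale 2 of these 73 rose and 45 fell (median -0.40), and of the 127 cytosolic genes 1 rose and 125 fell. With the covariate 37 of the 73 rose and none fell, and of the 127 none rose and 107 fell. On the deposited scale MRPL33 changed by 1.34 ± 0.10 and MRPL27 by 1.11 ± 0.07. The 2 ranges overlapped, since cytosolic genes ran from -1.46 to 1.26 and mitochondrial genes from -0.18 to 1.34. Ribosome biogenesis factors rose in 39 of 130 cases and fell in 35, shares near those of all genes (median 0.01, -0.76 on the control scale). Among them 3 rose and 54 fell with the covariate (median -0.58). NOP16 and RRP14, of the large subunit's assembly, rose by 1.71 ± 0.09 and 1.61 ± 0.12, while the fibrillarin gene NOP1 changed by -1.14 ± 0.10. Of 37 genes of RNA polymerases I and III 14 rose and 6 fell (median 0.09, -0.67 on the control scale and -0.07 with the covariate), and the largest subunit of polymerase I, RPA190, changed by -0.94 ± 0.12. Translation factors fell in 26 of 39 cases and rose in 2 (median -0.36, -0.60 with the covariate), including the cap-binding complex genes TIF4631 and CDC33 changing by -1.08 ± 0.09 and -0.98 ± 0.11 and the poly(A)-binding protein gene PAB1 by -1.04 ± 0.08. Of 20 aminoacyl-tRNA synthetase genes 17 fell and none rose (median -0.50, -0.77 with the covariate). CDC33 was not called with the covariate. With the covariate the difference of RPL22B turned to -0.03 and was not called. MRPL27 was not called on the control scale without bioB.

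In protein breakdown, of 36 autophagy genes 18 rose and 6 fell (median 0.21, -0.56 on the control scale and 0.37 with the covariate). ATG39, a receptor for autophagy of the nuclear envelope, changed by 1.28 ± 0.09, the ubiquitin-like ATG8 by 0.92 ± 0.09 and ATG5 by -0.82 ± 0.07. Of 34 proteasome genes 18 fell and 5 rose (median -0.23), while with quantile normalization 8 fell (median -0.10), and 0 with the covariate (median -0.01). Of 19 ubiquitin genes 8 rose and 6 fell. The vacuole, the yeast lysosome, is acidified by a proton pump and 14 of its 18 genes fell while 1 rose (median -0.40). The membrane ring gene VMA3 had the largest of these falls, -1.03 ± 0.07. Vacuolar and related hydrolases fell in 5 of 14 cases and rose in 4 (median -0.06), with the cysteine aminopeptidase LAP3 changing by -1.25 ± 0.17, the aminopeptidase APE3 by -0.88 ± 0.11 and the proteinase gene PEP4 by -0.58 ± 0.08. Of 30 genes of mRNA decay 10 rose and 12 fell, and NMD2, of nonsense-mediated decay, rose by 1.16 ± 0.11. Of 34 genes of the secretory pathway 15 fell and 3 rose, none by 2-fold (median -0.18). With the covariate 2 of them fell and none rose. LAP3, APE3, PEP4 and NMD2 were not called with the covariate. ATG8 was not called on the control scale.

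Nucleotide and one-carbon genes were mostly lower, and sulfur genes went both ways. Of 23 purine genes 20 fell and 2 rose (median -0.53), with ADE13 changing by -1.52 ± 0.08. Of 17 pyrimidine genes 10 fell and 3 rose (median -0.38, -0.65 with the covariate), with URA10 changing by -1.69 ± 0.10 and URA2 by -1.02 ± 0.10. Of 15 serine and one-carbon genes 9 fell and 1 rose (median -0.39), and SER3 changed by -1.81 ± 0.10 and SHM2 by -1.22 ± 0.08. Of 33 sulfur genes 16 rose and 9 fell (median 0.32, -0.45 on the control scale and 1.0 with the covariate). Falls in the methyl cycle included methionine synthase MET6, changing by -1.99 ± 0.11, SAH1 by -1.45 ± 0.07 and SAM2 by -1.35 ± 0.17. The rises included the regulator MET32, changing by 1.41 ± 0.16, the methionine permease MUP3 by 1.26 ± 0.18 and the sulfate transporter SUL1 by 1.12 ± 0.29. MET6 had levels of 10.67, 11.09 and 11.12 on day 2 and 9.03, 8.99 and 8.90 on day 6, without overlap, and its day 10 level was 11.25 ± 0.09. Arginine genes rose in 4 and fell in 4 of 11 cases, and ARG4 fell by 1.80 ± 0.13. Of 9 lysine genes 6 rose and 1 fell (median 0.27, -0.50 on the control scale), and LYS20, the first enzyme of the pathway, changed by 1.53 ± 0.12. Branched-chain genes rose in 1 and fell in 5 of 12 cases, histidine genes in 2 and 3 of 7 (none rose without day 6 replicate 3), and aromatic genes in 3 and 7 of 14. Of 38 nitrogen-regulated genes 10 rose and 17 fell (median -0.15), against 5 and 3 with the covariate. The glutamate dehydrogenase GDH3 changed by 1.17 ± 0.08. Of 22 permease genes 9 rose and 8 fell, with DIP5 changing by -1.58 ± 0.14 and BAP2 by 1.09 ± 0.06. SAM2 was not called with the covariate. BAP2 was not called on the control scale. SUL1 was not called on the control scale without bioB.

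Vitamin and metal genes gave further large changes. Thiamine, vitamin B1, is a cofactor of pyruvate decarboxylase, and 14 of 17 measured genes of its synthesis and uptake fell while 1 rose (median -0.80). With the covariate 8 fell and 1 rose. The THI13 probe set, shared within a family of near-identical genes that cannot be told apart here, had levels of 11.70, 11.68 and 11.87 on day 2 and 8.58, 8.78 and 8.69 on day 6, and it differed by -3.07 ± 0.07. PET18 changed by -1.91 ± 0.07, THI6 by -1.27 ± 0.06 and THI4, of thiazole synthesis, by -0.64 ± 0.08. Of 5 vitamin B6 genes 4 fell and none rose (median -0.49, -0.15 with the covariate), and the starvation-induced SNO1 fell by 0.90 ± 0.09. The high-affinity copper transporter CTR3 had levels of 6.81, 7.25 and 7.18 on day 2 and 9.77, 9.76 and 10.15 on day 6, without overlap, and differed by 2.82 ± 0.17, a 7.04-fold rise. The copper transporter gene CTR1 rose by 1.32 ± 0.12 and the reductase FRE7 by 1.20 ± 0.16, while their activator gene MAC1 changed by -0.52 ± 0.10. CTR3 was lower again on day 10, at 7.56 ± 0.09, and its log phase level was 9.31 ± 0.38 (SD, n = 3). In that list 5 of 9 genes rose and 3 fell (median 0.25, -0.52 on the control scale). Of 29 iron genes 15 rose and 3 fell (median 0.17, -0.59 on the control scale and 0.50 with the covariate), and the siderophore transporter SIT1 rose by 1.10 ± 0.20. Of 14 zinc-responsive genes 3 rose and 6 fell (median -0.17, 0.02 without day 2 replicate 3 and 0.40 with the covariate), with IZH2 changing by -1.55 ± 0.11 and ZPS1 by -1.45 ± 0.24. The phosphate transporters moved apart. PHO89, which takes up phosphate with sodium, had levels of 6.75, 6.92 and 7.30 on day 2 and 9.08, 9.59 and 9.49 on day 6, a difference of 2.40 ± 0.15 without overlap, and PHO84, which takes it up with protons, changed by -1.07 ± 0.15. The phosphate list had 4 of 27 genes higher and 10 lower (median -0.09), against 3 and 2 with the covariate. THI4, FRE7, ZPS1 and PHO84 were not called with the covariate. With the covariate the difference of MAC1 turned to 0.28 and was not called. SIT1 was not called on the control scale.

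Cell surface genes were mostly lower. TIP1, a cell wall mannoprotein, had levels of 11.07, 11.23 and 11.33 on day 2 and 6.80, 6.96 and 6.95 on day 6. It differed by -4.30 ± 0.11, a 19.8-fold fall, the second largest fall of all genes, whereas its relatives TIR2, TIR3 and TIR4 changed by -0.40 ± 0.07, -0.46 ± 0.08 and -0.28 ± 0.07. That list, with the DAN and PAU genes, had 14 of 20 genes lower and 1 higher (median -0.26), and many PAU probe sets are shared between copies. With the covariate 5 of the 20 were lower and none higher. Of 9 PIR and SUN genes 5 fell and 2 rose (median -0.67, 0.17 with the covariate). NCA3 had levels of 8.33, 7.99 and 8.24 on day 2 and 10.63, 10.43 and 10.28 on day 6 and rose by 2.26 ± 0.11, and its SUN family relatives SIM1 and SUN4 changed by -1.90 ± 0.14 and -1.41 ± 0.10. In the PIR family, PIR3 rose by 1.72 ± 0.11 and CIS3 fell by 1.90 ± 0.07. Of 35 other cell wall genes 24 fell and 6 rose (median -0.54, -0.25 with the covariate), and SRL1 changed by -2.16 ± 0.18 and TOS6 by -1.96 ± 0.21. Of 5 flocculation genes 4 rose and none fell (median 0.22, -0.55 on the control scale), and 2 rose when the 6 arrays of these days were fitted alone. The adhesin FLO11 changed by 0.89 ± 0.07. Of 20 multidrug transport genes 6 rose and 9 fell, with PDR10 changing by 1.31 ± 0.10 and the polyamine exporter TPO4 by -1.69 ± 0.09. TIR2, TIR3, TIR4 and TOS6 were not called with the covariate. FLO11 was not called on the control scale.

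In nutrient signalling, of 21 genes of TOR, SCH9 and quiescence 8 rose and 6 fell, shares near those of all genes. RIM15, the kinase of entry into quiescence, and SCH9 changed by 0.0 and -0.04, not called, and GIS1 and MSN4, factors of post-diauxic and stress genes, by -0.20 ± 0.06 and -0.64 ± 0.09. SLT2, the kinase of the cell wall integrity pathway, rose by 1.39 ± 0.07. Of 15 Ras and PKA genes 4 rose and 4 fell, between -0.62 and 0.52. Of 14 sirtuin and silencing genes 8 rose and 2 fell (median 0.16, -0.60 on the control scale), again none by 2-fold, with SIR1 changing by 0.76 ± 0.07 (-0.01 on the control scale) and NPT1, of NAD salvage, by -0.70 ± 0.05. With the covariate 2 of the 14 rose and 1 fell. GIS1 and MSN4 were not called with the covariate.

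Among the other genes of the 15 largest rises and 15 largest falls, several carry less well known roles. Of the rises, YIG1 changed by 2.30 ± 0.08, CIS1 by 2.50 ± 0.14, YKL068W-A by 2.03 ± 0.13 and BTN2, a factor that sorts misfolded proteins, by 2.02 ± 0.16. Of the falls, the reductase gene ARI1 changed by -2.71 ± 0.12, the membrane protein gene MRH1 by -2.46 ± 0.15, the sterol-binding secreted protein gene PRY1 by -2.32 ± 0.10 and YKR075C by -2.31 ± 0.10. YIG1 had levels of 6.58, 6.57 and 6.57 on day 2 and 8.73, 8.84 and 9.04 on day 6, and ARI1 of 8.91, 9.04 and 9.32 on day 2 and 6.51, 6.13 and 6.52 on day 6. Neither gene overlapped between the days, which was a condition of being picked.

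The levels of day 10 are set beside these, and since both comparisons share the day 6 arrays, no overlap between them was computed. SSA3 was at 9.99 ± 0.20 on day 10 (SD, n = 3), -1.47 ± 0.12 from day 6 and between its levels of days 2 and 6. HXT5, GRE1 and SIP18 stood -1.57 ± 0.15, -1.54 ± 0.14 and -1.76 ± 0.14 from day 6, and CTR3 -2.34 ± 0.17. NCA3 and PHO89 were higher still, 0.83 ± 0.11 and 0.73 ± 0.15 from day 6. Of the genes that had fallen, STE2 stood -0.06 ± 0.09 from day 6, HXT3 -0.30 ± 0.09, TIP1 0.58 ± 0.11 and PDC5 0.63 ± 0.14, and their day 10 minus day 2 differences were -3.39, -4.44, -3.73 and -3.05.

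**Figure D5:**
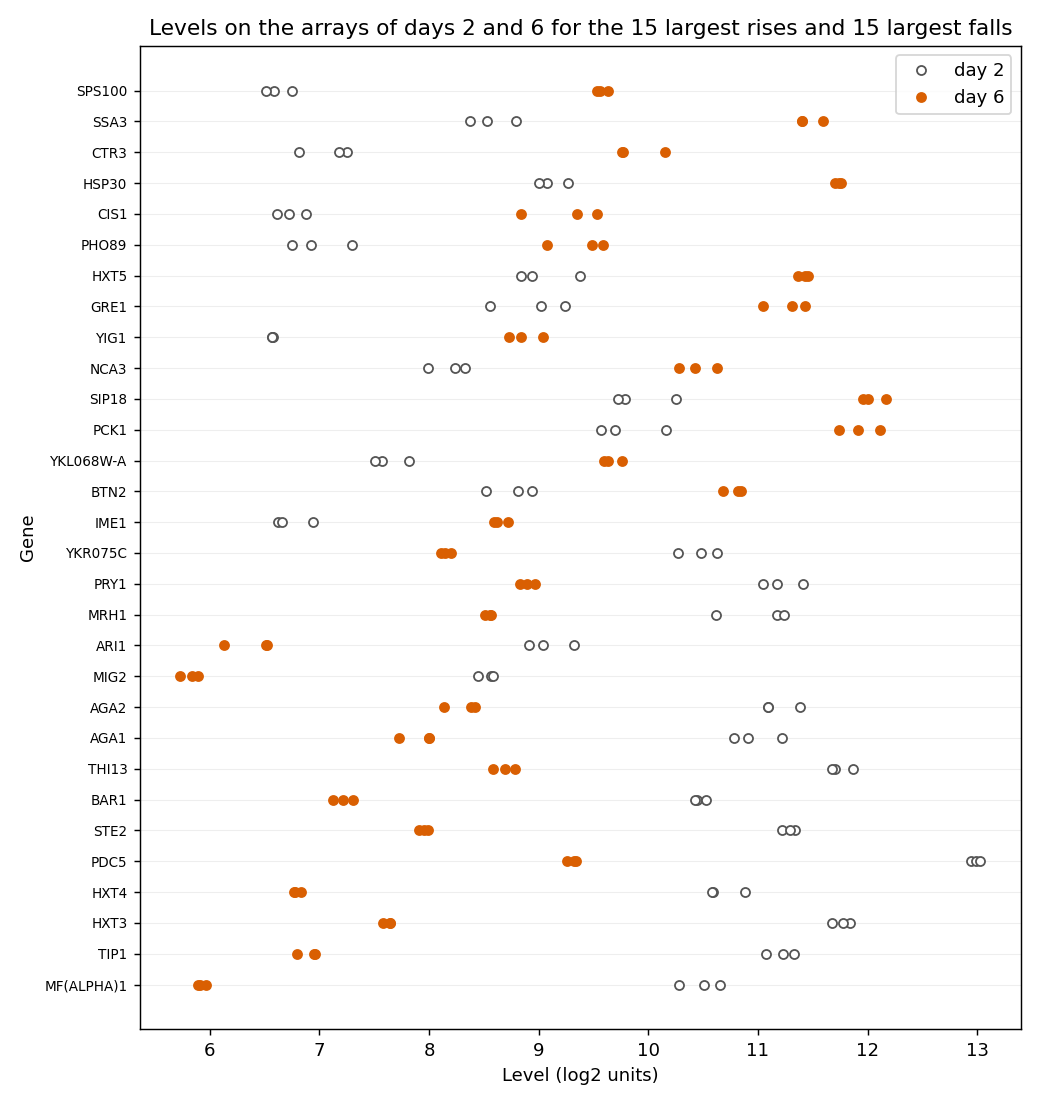
Levels (horizontal axis, log2 units) on the 3 arrays of day 2 (open circles) and the 3 arrays of day 6 (filled circles) for the 15 largest called rises and the 15 largest called falls without overlap between the days, 1 row per gene, ordered by the difference. The genes were picked for large differences without overlap, so the gap between the days follows from the choice. Differences run from 2.96 for SPS100 at the top to -4.56 for MF(ALPHA)1 at the bottom.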

How the data were processed

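Per the labels, RNA of yeast cell pellets was hybridised to Affymetrix arrays. The values are the authors' deposited log2 summaries of probe sets, for which the submitters' processing notes name PLIER. Neither its version nor a background correction or normalization is given in the sources used here, and the log2 scale was inferred from the range of the values, 5.11 to 13.79. The table had 10928 probe sets, 213 of them controls. The platform annotation gave 1 gene for 7244 probe sets, several for 1 and none for 3470. A RefSeq gene table of the S288C reference strain updated 12 symbols, and 5498 probe sets of 5449 S. cerevisiae genes were kept. Where a gene had several, as 47 did, the brightest stood for it, and 118 of the probe sets used are shared between genes. The 1746 probe sets of another yeast species set the background, the 95th percentile of their values (5.81 on day 2 and 5.79 on day 6). No genome and no sequences were used.

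The model had a coefficient for each of 4 times and all 12 arrays, fitted in limma 3.58.1 under R 4.3.3, with 8 residual degrees of freedom and 12.9 including the prior. Adjusted p-values are Benjamini-Hochberg values over 5449 genes. The same code was tested on simulated data. With 3 arrays per day, their number limits the precision. The 75 gene lists with their members and the naming rule were chosen with earlier results of these data known. The rule names the 15 highest and 15 lowest called genes without overlap, up to 6 called members of a list with the largest change, any member of a list of 30 or fewer, and 50 sentinel genes. Alternatives changed the scale (an offset of 16 before log2), the normalization (quantile, median centring, or hybridisation controls with and without bioB), the genes (dim ones left out) and the probe sets (all tested, or averaged). Others changed the prior (trend, robust), the arrays (6 alone, weighted, or each of days 2 and 6 left out), or added the replicate block or the 3' minus 5' covariate. All 12 deposited columns were used.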

Additional observations from a re-analysis of the deposited data

How the results depend on the processing

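The number of called genes stayed between 3348 and 3972 under the alternatives other than centring on controls and the covariate, against 3659. Leaving out 1 array gave 3370 to 3664 called genes, 1730 to 1867 higher and 1575 to 1797 lower, 131 to 153 at least 2-fold higher and 209 to 228 at least 2-fold lower. Centring on the hybridisation controls gave 102 higher and 4571 lower, 19 and 1523 of them by 2-fold, and without bioB 90 and 4641, with 18 and 1698 by 2-fold. The covariate gave 1636 called genes, 844 higher and 792 lower, with 209 at least 2-fold higher and 284 at least 2-fold lower. Of the 3659 called genes 1841 kept call and direction on the control scale and 1382 with the covariate. The cause of these losses was not tested.

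On the control scale the signs of these differences turned, given with and then without bioB: NTH1 -0.13 and -0.17, CAT8 -0.61 and -0.65, SIR1 -0.01 and -0.05, PGK1 -0.76 and -0.80, RIM15 -0.77 and -0.80, COX5A -0.22 and -0.26, HAP4 -0.73 and -0.77, NTH2 -0.23 and -0.27, ADR1 -0.75 and -0.79 and ATH1 -0.47 and -0.51. With the covariate the sign turned for RPL22B (-0.03), CTT1 (0.35), HAP4 (-0.82), MAC1 (0.28) and ADH4 (0.88). Quantile normalization moved list counts: 10 cytosolic ribosomal protein genes rose in place of 6, and 8 proteasome genes fell in place of 18. The replicate numbers gave no sign of pairing the arrays (correlations of same-numbered deviations of 0.02, -0.29 and -0.28). Day 2 replicate 3 and day 6 replicate 2 gave the highest correlation, 0.36. Deviations within a day are not independent, so these values do not show whether cultures were paired. With the replicate block 3626 genes were called, 1903 higher and 1723 lower. The iteration for array weights may not have converged. A search of promoter motifs was not run.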

Other observations

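Some other genes with large changes were picked after their values were seen, so they are given as values only, with no statement on the groups they belong to. BIO2, biotin synthase, changed by -1.71 ± 0.12, BIO3, of an earlier step, by -2.17 ± 0.10 and BIO5, a carrier of a precursor, by -1.76 ± 0.11. BIO5 had levels of 8.18, 8.11 and 8.21 on day 2 and 6.34, 6.47 and 6.40 on day 6. Of transcription factors of filamentous growth, TEC1 changed by -2.0 ± 0.11, PHD1 by -2.08 ± 0.12 and MGA1 by -1.36 ± 0.09. The ester-forming acyltransferases EHT1 and EEB1 changed by -1.54 ± 0.09 and -1.42 ± 0.07 and the butanediol dehydrogenase BDH1 by -1.34 ± 0.07. PMA1, the proton pump of the plasma membrane, had levels of 10.95, 10.95 and 11.08 on day 2 and 9.36, 9.28 and 8.97 on day 6. Its days did not overlap, and it changed by -1.79 ± 0.10. CDS1, which makes the precursor of several phospholipids, changed by -1.87 ± 0.06 and PRY2, a relative of PRY1, by -2.28 ± 0.13.

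Among other genes that rose, SMF1, a manganese transporter, changed by 1.54 ± 0.09, and HEF3, a second copy of an elongation factor gene, by 1.76 ± 0.13. The maltose genes MAL11 and MAL32 rose by 1.03 ± 0.17 and 1.10 ± 0.18. Of 3471 probe sets with no single annotated gene 178 were called when tested by themselves, 92 higher and 86 lower, and 16 of them moved by at least 2-fold, between -1.63 and 1.83. They carry no gene name here. MAL11 and MAL32 were not called with the covariate. MAL11 and MAL32 were not called on the control scale.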
